A study of Mus musculus with 6 samples.

Results

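The 10 genes described here are the transcription factor NRF2 (gene symbol Nfe2l2), its inhibitor Keap1, and 8 enzyme genes of oxidant defence that are widely used as NRF2 targets: Gclc, Gclm, Gpx2, Prdx1, Srxn1, Txnrd1, Nqo1 and Hmox1. They were found by symbol in a table of 18159 genes, all 10 were present, and all 10 were among the 13558 genes expressed enough to be tested. RNA came from intestinal epithelial cells of mice aged 12 days, with 3 libraries labelled Git2-knockout and 3 libraries from wild-type mice. The series' design text calls the material enteroids, which are epithelial organoids grown from crypts, while the sample titles speak of epithelial cells, and the genotype field of the knockout samples says knockdown. Strain, sex, the altered part of Git2 and any treatment were not stated in the labels, and nothing says that libraries of a group came from separate animals, so p-values measure the spread between these libraries, which may be technical.

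NRF2 is made constantly and destroyed constantly. Keap1 holds it on a Cul3 ubiquitin ligase that sends it to the proteasome, and oxidants or electrophiles that modify cysteines of Keap1 let new NRF2 escape to the nucleus. There it pairs with a small Maf protein and binds the antioxidant response element, a short motif near genes that make glutathione, reduce peroxides and quinones, recycle thioredoxin and break down haem. In the gut epithelium these enzymes meet peroxides and reactive compounds from food, microbes and inflammation. NRF2 activity is set mainly through the stability of the protein, which was not measured here.

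The libraries labelled Git2-knockout held 16284414 to 16837158 estimated reads and the wild-type libraries 18753649 to 19106581, and the depth limits counting precision only for the rarest genes below, since each member had at least 431.17 estimated reads in every library. Git2 itself was lower but still present, at 16.6 ± 0.98 CPM in the libraries labelled Git2-knockout and 22.9 ± 0.76 CPM in wild-type (SD, n = 3 each; CPM, estimated reads relative to library size, scaled between libraries by TMM), so its level does not check the labels and directions below are those of the libraries as labelled. Among marker genes, 10 of 12 epithelial genes fell and 0 rose on the CPM scale, where 27.4% of all tested genes fell. On the log2(TPM + 1) scale 7 fell and 2 rose, Epcam (0.17) and Cdh1 (0.25), where 14.0% of all tested genes fell and 42.1% rose. TPM, a relative transcript abundance, corrects for transcript length. The summed TPM of the 12 was 13240 to 13360 in the libraries labelled Git2-knockout, against 13850 to 14380 in wild-type. Of 11 tested fibroblast and smooth muscle genes 10 rose on the CPM scale, where 29.6% of all tested genes did, and 11 on the log2(TPM + 1) scale. The summed TPM over the 12 listed was 74.8 to 81.2 in the libraries labelled Git2-knockout and 22.3 to 23.7 in wild-type. All 8 endothelial genes rose on either scale, with a summed TPM of 34.5 to 38.7 and 13.7 to 14.3. No listed gene of these types was at 0 in a whole group, and Myh11, Lum (not tested) and Tek averaged below 1 TPM in both. In bulk RNA, fewer cells of a type and less RNA per cell cannot be told apart, and the part that these shifts in markers have in the members' values was not tested beyond the ratios to epithelial genes given below.

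Promoter windows from RefSeq (assembly GRCm38.p6, 250 bases before to 50 bases after a start) were at hand for 8 of the 10 genes. Gclc and Hmox1 had none and were not searched. They are shown because the antioxidant response element is what defines NRF2 targets, and they let the genes that carry its core be set beside the direction in which each gene went. The core was searched as TGACNNNGC on both strands. It was found in 5 of these 8 genes and in 5 of their 10 windows, beside 12.4% of all 32851 windows and 14.0% of all genes with a window. The matches that lie before the start are printed 5′ to 3′ on the gene's strand with the core in capitals, which for Gclm, Prdx1 and Txnrd1 reads as the core's reverse complement.
Nfe2l2, chr2:75704875-75704913, minus strand: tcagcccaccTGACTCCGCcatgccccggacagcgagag
Gclm, chr3:122245403-122245451, plus strand: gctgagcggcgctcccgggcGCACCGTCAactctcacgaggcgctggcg
Prdx1, chr4:116685446-116685494, plus strand: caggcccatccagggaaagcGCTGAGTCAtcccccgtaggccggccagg
Txnrd1, chr10:82859094-82859142, plus strand: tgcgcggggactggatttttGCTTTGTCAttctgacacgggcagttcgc

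The Nfe2l2 match began 240 bases before the start, that of Gclm 134, that of Prdx1 133 and that of Txnrd1 92. The Prdx1 match overlapped a TGANTCA motif, the element bound by AP-1 factors, and the other 3 did not. Srxn1 had a match 29 to 37 bases after its start, printed here with 10 bases on each side at chr2:152105542-152105570 on the plus strand, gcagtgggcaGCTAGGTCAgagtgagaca. Txnrd1 has 3 windows, of which 1 held the core. No match was found in the windows of Gpx2, Nqo1 and Keap1, which says only that these letters are not in these windows.

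On the CPM scale, the inhibitor Keap1 and 5 of the 8 enzyme genes fell in the libraries labelled Git2-knockout, Nfe2l2 was slightly higher, and Gclc, Gclm and Prdx1 lay within the spread of the libraries. In all 6 members fell and 1 rose by the quasi-likelihood test of edgeR, with Benjamini-Hochberg adjusted p-values over all 13558 genes. This has to be read against a comparison in which 57.0% of all tested genes passed, 29.6% upward and 27.4% downward. The median log2 fold change of the 10 members was -0.25 and that of all tested genes 0.02. In 7 members, 6 lower and 1 higher, the CPM ranges were apart, as they were in 62.9% of all tested genes.

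**Figure D1:**
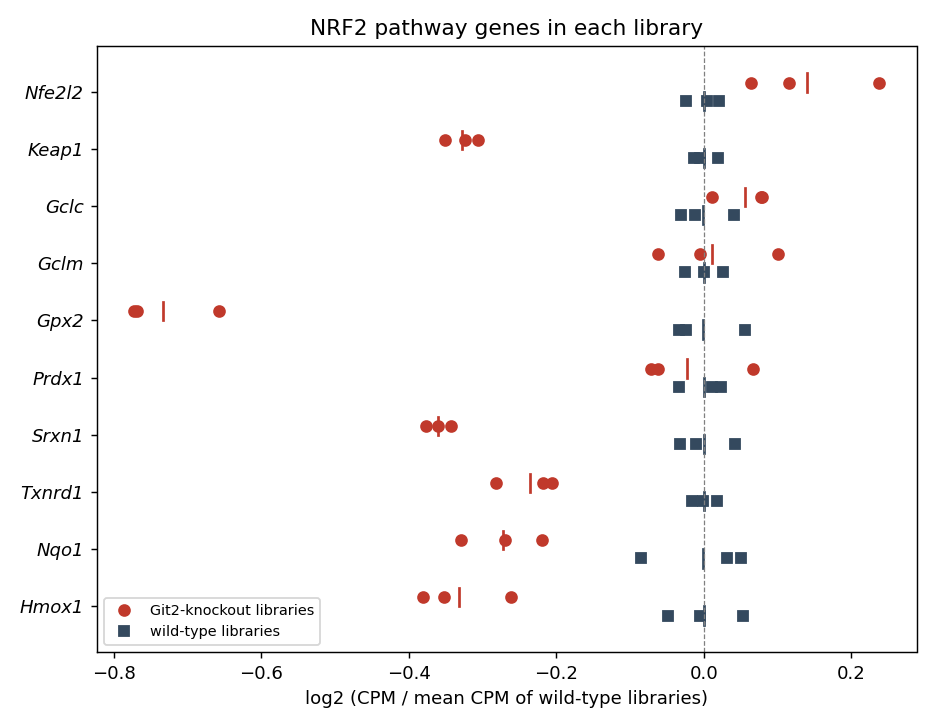
CPM of each of the 10 genes in each library, as log2 of its ratio to the mean of the 3 wild-type libraries; circles are the libraries labelled Git2-knockout, squares the wild-type libraries, and vertical strokes the group means. Gpx2 lies farthest left, at a mean log2 fold change of -0.73, while the circles of Gclc, Gclm and Prdx1 overlap the squares.

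Nfe2l2 (NCBI gene 18024, chromosome 2) encodes the transcription factor itself. Its transcript was at 114.8, 101.8 and 105.5 CPM in the libraries labelled Git2-knockout and at 98.7, 97.7 and 95.7 CPM in wild-type. The groups did not overlap, and replicate 1 labelled Git2-knockout stood above the other 2. The rise was 0.14 on the log2 scale (SE 0.05, 95% interval 0.04 to 0.25, edgeR adjusted p = 0.0238). It was lost without any of 5 of the 6 libraries: leaving out replicate 1 labelled Git2-knockout it was 0.06 (edgeR adjusted p = 0.175), and leaving out replicate 3 so labelled or any wild-type library 0.13 to 0.15.

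Keap1 (NCBI gene 50868, chromosome 9), the adaptor that captures NRF2 for the ligase, went the other way. It was at 71.9, 72.7 and 70.5 CPM in the libraries labelled Git2-knockout and at 89.6, 89.1 and 91.2 CPM in wild-type. Every library labelled Git2-knockout lay well below every wild-type library. Its level was 79.7% of wild-type (95% interval 74.6% to 85.1%), a log2 fold change of -0.33 (SE 0.04, edgeR adjusted p = 1.32e-05). An annotated antisense transcript, Gm16754, overlaps a Keap1 exon over 209 bases in GENCODE M21, and since the strand setting of the counts is not given, reads from that stretch cannot be told apart.

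Glutathione synthesis begins with glutamate-cysteine ligase, made of the catalytic subunit Gclc and the modifier subunit Gclm. Gclc (NCBI gene 14629, chromosome 9) was at 167.3, 167.2 and 159.6 CPM in the libraries labelled Git2-knockout and at 157.1, 163.0 and 155.0 CPM in wild-type. Gclm (NCBI gene 14630, chromosome 3) was at 183.4, 163.8 and 170.5 CPM in the libraries labelled Git2-knockout and at 168.1, 174.2 and 171.1 CPM in wild-type. Both sets of values overlapped between the groups, and for Gclm the 3 libraries labelled Git2-knockout spread more widely than the wild-type ones. The log2 fold change was 0.06 for Gclc (95% interval -0.03 to 0.15, edgeR adjusted p = 0.271). For Gclm it was 0.01 (95% interval -0.09 to 0.11, edgeR adjusted p = 0.842). As a share of wild-type, these intervals run from 97.7% to 111% for Gclc and from 94.2% to 108% for Gclm. Exons of Gclm overlap 2 other annotated transcripts, Gm17494 on the opposite strand and Gm6061 on the same strand, so some of its reads cannot be told apart from theirs.

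Gpx2 (NCBI gene 14776, chromosome 12) encodes the selenium-dependent glutathione peroxidase of the gastrointestinal epithelium, which is strongest in crypts. It was at 63.6, 58.9 and 58.7 CPM in the libraries labelled Git2-knockout and at 98.6, 98.0 and 104.2 CPM in wild-type. The groups stood far apart compared with the spread inside each. Its level was 60.2% of wild-type (95% interval 56.0% to 64.8%), a log2 fold change of -0.73 (SE 0.05, edgeR adjusted p = 8.67e-09), and 2.41% of tested genes had a lower fold change. A processed pseudogene, Gpx2-ps1, matches it over 572 bases at 98.1% identity, so some of its reads could be placed in either. Beside this fall, 4 of 7 crypt stem cell genes fell, among them Ascl2 (-0.86 on the log2 scale), and 2 rose, among them Lgr5 (0.48). On the log2(TPM + 1) scale 2 fell and 3 rose, with Ascl2 at -0.65 and Lgr5 at 0.62. The shares of all tested genes that fell and rose were 27.4% and 29.6% on the CPM scale. They were 14.0% and 42.1% on the log2(TPM + 1) scale. The part of the crypt stem cell genes in the Gpx2 value was not tested.

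Prdx1 (NCBI gene 18477, chromosome 4), a cytosolic peroxiredoxin that reduces hydrogen peroxide with electrons from thioredoxin, was the most abundant member per length. It was at 289.8, 263.4 and 265.2 CPM in the libraries labelled Git2-knockout and at 278.8, 281.2 and 270.4 CPM in wild-type. The libraries labelled Git2-knockout lay on both sides of the wild-type ones, with replicate 1 highest. The log2 fold change was -0.02 (95% interval -0.11 to 0.07, edgeR adjusted p = 0.707). Leaving out replicate 1 labelled Git2-knockout gave -0.09 (edgeR adjusted p = 0.0167). The processed pseudogenes Gm21399 and Gm7204 match Prdx1 over 597 bases at 98.3% and 97.5% identity, so its reads are also uncertain.

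Srxn1 (NCBI gene 76650, chromosome 2) encodes sulfiredoxin, which repairs peroxiredoxins that peroxide has overoxidised. It was at 316.0, 319.7 and 323.8 CPM in the libraries labelled Git2-knockout and at 401.4, 407.4 and 422.6 CPM in wild-type. The lowest wild-type library was above every library labelled Git2-knockout. Its level was 77.9% of wild-type (95% interval 73.7% to 82.4%), a log2 fold change of -0.36 (SE 0.04, edgeR adjusted p = 9.41e-07).

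Txnrd1 (NCBI gene 50493, chromosome 10), the cytosolic selenoprotein that keeps thioredoxin reduced with NADPH, was at 175.2, 183.1 and 184.7 CPM in the libraries labelled Git2-knockout and at 212.8, 210.7 and 215.7 CPM in wild-type. The groups did not overlap, and replicate 1 labelled Git2-knockout was lowest. Its level was 85.0% of wild-type (95% interval 80.0% to 90.2%), a log2 fold change of -0.24 (SE 0.04, edgeR adjusted p = 1.27e-04), which did not pass on the TPM scale described below.

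Nqo1 (NCBI gene 18104, chromosome 8), which reduces quinones without a radical intermediate and is the usual reporter gene of NRF2 activity, was the least abundant member. It was at 27.3, 25.3 and 26.3 CPM in the libraries labelled Git2-knockout and at 29.9, 32.8 and 32.4 CPM in wild-type. The groups did not overlap, but the highest library labelled Git2-knockout and the lowest wild-type library were close. Its level was 82.8% of wild-type (95% interval 75.6% to 90.7%), a log2 fold change of -0.27 (SE 0.06, edgeR adjusted p = 0.00133). The call was lost with the trend of counts on transcript length removed, at a log2 fold change of -0.12 (edgeR adjusted p = 0.0768).

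Hmox1 (NCBI gene 15368, chromosome 8) encodes the inducible haem oxygenase, which macrophages also make. It was at 62.0, 57.1 and 58.2 CPM in the libraries labelled Git2-knockout and at 71.9, 74.1 and 77.1 CPM in wild-type, without overlap. Its level was 79.5% of wild-type (95% interval 73.7% to 85.7%), a log2 fold change of -0.33 (SE 0.05, edgeR adjusted p = 4.56e-05). On the CPM scale 3 of 10 tested macrophage genes rose and 1 fell, beside 29.6% and 27.4% of all tested genes. The rises were C1qa, C1qb and Fcgr1, and the fall was Csf1r. On the log2(TPM + 1) scale 5 macrophage genes rose and 1 fell, beside 42.1% and 14.0%. The 11 listed had a summed TPM of 136 to 140 in the libraries labelled Git2-knockout and 166 to 169 in wild-type. Without Csf1r, at 53.6 TPM and 104 TPM, the other 10 summed to 82.9 to 84.7 TPM in the libraries labelled Git2-knockout and 61.5 to 65.2 TPM in wild-type. The macrophage scavenger receptor Cd163 was at 0.05 and 0.017 TPM. Of 5 tested erythroid genes 4 rose on the CPM scale, beside 29.6% of all tested genes. On the log2(TPM + 1) scale 5 rose, beside 42.1%. The summed TPM of the 8 listed was 303 to 329 in the libraries labelled Git2-knockout and 83.5 to 87.5 in wild-type. The part of macrophages or red cells in the Hmox1 value was not tested.

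Per length, the order of the members differed from their order in reads. In TPM, Prdx1 stood highest in both groups, at 451 ± 13.2 in the libraries labelled Git2-knockout and 410 ± 11.2 in wild-type (SD, n = 3 each). Srxn1 followed with 260 ± 9.44 TPM and 299 ± 5.45 TPM, a gap to Prdx1 far beyond either spread. In the libraries labelled Git2-knockout Gclm came next, at 193 ± 6.32 TPM, above Gpx2 at 134 ± 3.05 TPM. In wild-type the same pair stood the other way round, with Gclm at 171 ± 2.58 TPM and Gpx2 at 199 ± 5.47 TPM. Nqo1 was last in both groups, at 38.5 ± 0.959 TPM and 41.6 ± 1.65 TPM, and 68.7% of tested genes had a lower mean TPM than Nqo1.

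The scale decided how the middle of the list was read. TPM values were higher relative to CPM in the libraries labelled Git2-knockout by 0.16 to 0.18 on the log2 scale for every member, and the median of all tested genes lay at 0.14 on the log2(TPM + 1) scale. With limma-trend on that scale, 4 members rose and 4 fell, where 42.1% of all tested genes rose and 14.0% fell, and 75.1% of all calls were upward compared with 51.9% of the edgeR calls. Nfe2l2 rose by 0.30, Gclc by 0.24 (adjusted p = 6.03e-04), Gclm by 0.17 (adjusted p = 0.0026) and Prdx1 by 0.14 (adjusted p = 0.00766), the last 2 about as much as the median gene. Gpx2 (-0.57), Srxn1 (-0.20), Hmox1 (-0.17) and Keap1 (-0.16) fell on both scales. Txnrd1 (-0.06, adjusted p = 0.214) and Nqo1 (-0.11, adjusted p = 0.0906) did not pass in TPM, though their TPM values did not overlap between the groups, as was so for 62.6% of all tested genes.

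**Figure D2:**
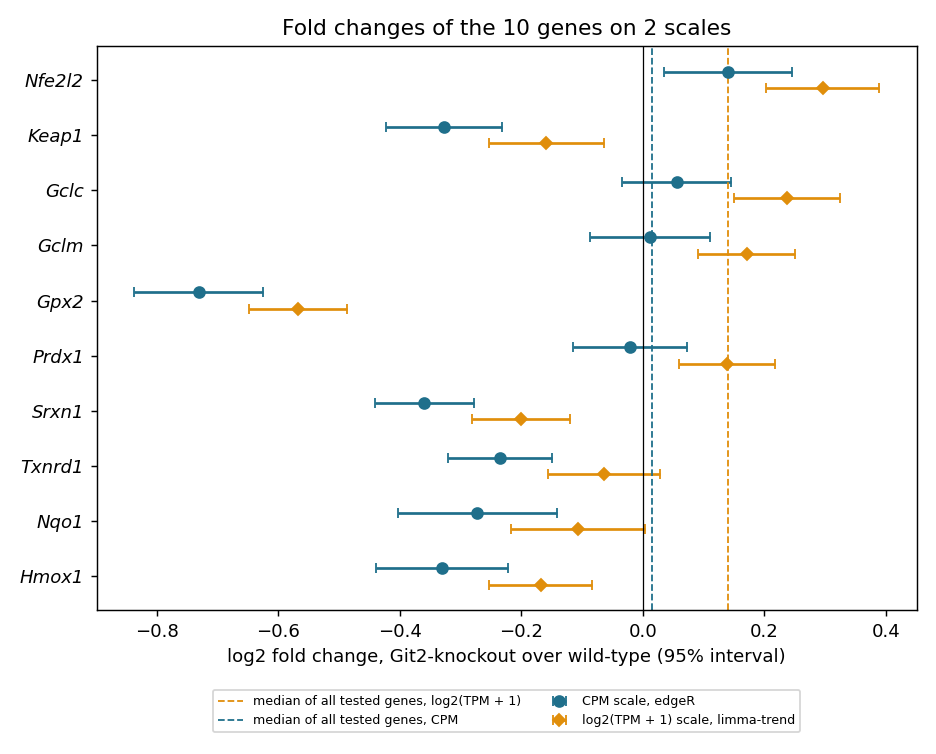
Log2 fold change of each gene, Git2-knockout over wild-type, with its 95% interval, on the CPM scale (circles, edgeR) and on the log2(TPM + 1) scale (diamonds, limma-trend); dashed lines mark the median of all tested genes on each scale. All diamonds lie to the right of their circles, and Gpx2 is farthest below both medians.

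Set against the summed TPM of the 12 epithelial marker genes of the same library, a ratio chosen after seeing the data, 3 members were lower without overlap in the libraries labelled Git2-knockout: Gpx2 (-0.48 on the log2 scale), Srxn1 (-0.11) and Hmox1 (-0.08). Of all tested genes 10.1% were lower without overlap on this ratio and 55.7% higher. Higher without overlap were 4 members, Nfe2l2 (0.39), Gclc (0.33), Gclm (0.26) and Prdx1 (0.23). Keap1 (-0.07), Nqo1 (-0.02) and Txnrd1 (0.02) overlapped. Gpx2 therefore had the lowest value and Nfe2l2 the highest by this measure too.

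Ratios of functionally paired genes within a library do not depend on how libraries are scaled to each other. They can still carry trends on length or GC content, which were not removed from them. In the gene fits, removal of both trends moved Nfe2l2 from 0.14 to 0.03 and Keap1 from -0.33 to -0.20 on the log2 scale. The ratio of Nfe2l2 to Keap1 in TPM was 2.08, 1.83 and 1.96 in the libraries labelled Git2-knockout and 1.44, 1.44 and 1.38 in wild-type, which is 1.38-fold higher. The ratio of Gpx2 to Gpx1, the glutathione peroxidase found in nearly all cells, was 0.319, 0.334 and 0.312 in the libraries labelled Git2-knockout and 0.468, 0.456 and 0.478 in wild-type. The ratio of Srxn1 to its substrate Prdx1 was 0.534, 0.597 and 0.600 in the libraries labelled Git2-knockout and 0.709, 0.713 and 0.769 in wild-type. In each of these 3 ratios the groups were separated by more than their spread. The ratio of Gclm to Gclc was 1.77, 1.63 and 1.76 in the libraries labelled Git2-knockout and 1.78, 1.78 and 1.84 in wild-type, where the highest value labelled Git2-knockout and the lowest wild-type value nearly met. Each of these 4 comparisons reached p = 0.1 in a two-sided exact permutation test, the smallest that 3 against 3 libraries allow, so none could pass 0.05, before or after adjustment over the 4. Taken from estimated counts, the ratio of Gclm to Gclc overlapped between the groups (exact permutation p = 0.4). Its log2 difference of -0.07 was -0.03 without replicate 2 labelled Git2-knockout.

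**Figure D3:**
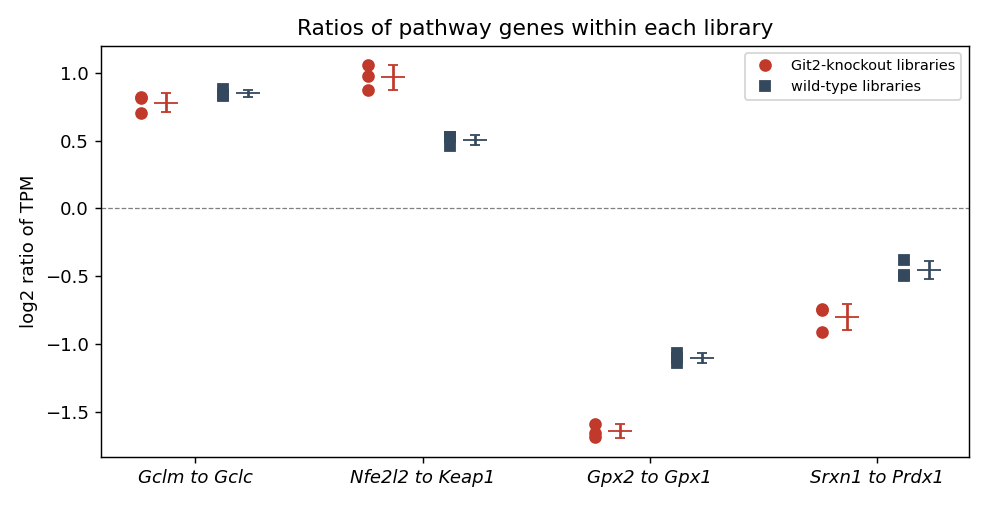
Log2 ratio of the TPM of paired genes in each library (circles, Git2-knockout; squares, wild-type), with group mean and SD beside the points. Nfe2l2 to Keap1 is higher, and Gpx2 to Gpx1 and Srxn1 to Prdx1 are lower, in all 3 libraries labelled Git2-knockout.

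Other genes of the pathway were taken from 11 lists by role, 93 genes in all, of which 92 were in the table and 90 were tested. Of these, 46 fell and 10 rose on the CPM scale, beside 27.4% and 29.6% of all tested genes, and their median log2 fold change was -0.17 against 0.02 for all. On the log2(TPM + 1) scale 33 fell and 22 rose, with a median of -0.01 against 0.14. Of the 56 genes called by edgeR, 22 kept call and direction under all 18 alternatives, 21 of the 90 tested as falls and 1 as a rise. Among all tested genes 8.20% kept a fall and 8.71% a rise in this way, genes dropped by the stricter filter being counted as not kept. The only rise among those 22 was Trim16 (0.25), a ubiquitin ligase that stabilises NRF2.

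Of 14 tested genes that control NRF2, 5 rose and 3 fell on the CPM scale, with a median of -0.02. On the log2(TPM + 1) scale 8 rose and 0 fell, with a median of 0.12 beside 0.14 for all genes. The shares of all tested genes that rose and fell were 29.6% and 27.4% on the first scale, and 42.1% and 14.0% on the second. Cul3, the scaffold of the ligase that Keap1 feeds, rose by 0.40 on the log2 scale, to 135.5 ± 1.66 CPM in the libraries labelled Git2-knockout, against 102.7 ± 1.35 CPM in wild-type (SD, n = 3 each; edgeR adjusted p = 7.26e-07). Gsk3b, a kinase that marks NRF2 for another ligase, rose by 0.34 and the acetyltransferase Ep300 by 0.28. After removal of length and GC trends together the 3 values were -0.11, -0.12 and -0.11, each a called fall (edgeR adjusted p = 0.0132, 0.0111 and 0.0204). Falls were seen in Maff (-0.23), a small Maf partner, in Dpp3 (-0.22), which competes for Keap1, and in the related factor Nfe2l1 (-0.19), all 3 lost on the log2(TPM + 1) scale. Sqstm1, the autophagy receptor that can bind Keap1 and the most abundant of the list, was at 406.1 ± 8.72 CPM and 421.7 ± 16.8 CPM (log2 fold change -0.05, edgeR adjusted p = 0.265), and rose by 0.10 on the log2(TPM + 1) scale.

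Among 10 tested glutathione synthesis and recycling genes, 3 fell and 1 rose on the CPM scale, beside 27.4% and 29.6% of all tested genes. On the log2(TPM + 1) scale 2 fell and 2 rose, beside 14.0% and 42.1%. Gss, the second enzyme of glutathione synthesis, fell to 333.4 ± 2.57 CPM in the libraries labelled Git2-knockout, against 417.9 ± 15.7 CPM in wild-type (log2 fold change -0.33, edgeR adjusted p = 3.91e-06), beside Gclc and Gclm that did not pass. Slc3a2, the heavy chain of the cystine transporter, fell by 0.31 on the log2 scale. Its partner Slc7a11 was barely detected, at 0.207 ± 0.0635 TPM and 0.183 ± 0.0643 TPM. Glutathione reductase (Gsr) fell by 0.16, lost without wild-type replicate 3 and on the log2(TPM + 1) scale (0.00). Ggct, which breaks down gamma-glutamyl peptides, rose by 0.35, lost when replicate 1 or 3 labelled Git2-knockout or wild-type replicate 3 was left out, and by DESeq2. Glutaredoxin (Glrx), the most abundant in TPM, was at 0.04 (edgeR adjusted p = 0.405) and rose by 0.20 on the log2(TPM + 1) scale.

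Among 5 other glutathione peroxidases, Gpx4, which protects membrane lipids, fell by 0.37 on the log2 scale and Gpx1 by 0.19, and both calls were lost with the length trend removed. The direction of both turned after removal of length and GC trends together, Gpx4 to 0.07 (edgeR adjusted p = 0.0982) and Gpx1 to a called rise of 0.16 (edgeR adjusted p = 2.16e-04). On the log2(TPM + 1) scale 1 of the 5 fell and 1 rose, beside 14.0% and 42.1% of all tested genes. Gpx3, the secreted form, rose by 0.10, to 13450 ± 760 CPM in the libraries labelled Git2-knockout, against 12520 ± 209 CPM in wild-type (SD, n = 3 each; edgeR adjusted p = 0.0296). That rise was lost without any of 5 of the 6 libraries, all but replicate 2 labelled Git2-knockout. On the CPM scale 3 of 5 other peroxiredoxins fell and 0 rose, beside 27.4% and 29.6% of all tested genes. The falls were in Prdx5 (-0.38), Prdx2 (-0.26) and Prdx6 (-0.24). Each of the 3 calls was lost under 1 alternative, that of Prdx5 after removal of length and GC trends together (-0.09), that of Prdx2 with the length trend removed (-0.08) and that of Prdx6 on the log2(TPM + 1) scale (-0.08).

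In the thioredoxin list 9 of 10 genes fell and 0 rose on the CPM scale, beside 27.4% and 29.6% of all tested genes. On the log2(TPM + 1) scale 5 fell and 1 rose, beside 14.0% and 42.1%. Thioredoxin itself (Txn1) fell to 287.0 ± 25.2 CPM in the libraries labelled Git2-knockout, against 370.5 ± 9.99 CPM in wild-type (log2 fold change -0.37, edgeR adjusted p = 3.46e-05). The methionine sulfoxide reductase Msra fell by 0.52, the mitochondrial thioredoxin Txn2 by 0.39 and the thioredoxin inhibitor Txnip by 0.31 on the log2 scale. These 4 falls held under all 18 alternatives. Beside them stood the falls of Txnrd1 and Srxn1 described above. In the rest of the list, the fall of Txnrd3 was lost under 9 of the 18 alternatives and that of Sesn2 under 5. Those of Txnrd2 and Txndc17 were lost under 2 each and that of Msrb1 under 1. Superoxide dismutase 1 (Sod1) fell by 0.61 and its copper chaperone Ccs by 0.55, also under all 18 alternatives, while catalase (Cat) lay at -0.01 (edgeR adjusted p = 0.796) and rose by 0.15 on the log2(TPM + 1) scale. Sod2 fell by 0.15 (edgeR adjusted p = 0.0441), a call lost under 10 of the 18 alternatives, 4 of them leaving out a library (replicate 2 or 3 labelled Git2-knockout, wild-type replicate 1 or 2).

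Of 7 cytosolic NADPH supply genes 4 fell and 0 rose on the CPM scale, beside 27.4% and 29.6% of all tested genes. On the log2(TPM + 1) scale 3 fell and 2 rose, beside 14.0% and 42.1%, the rises being Me1 (0.24) and Idh1 (0.26). The pentose phosphate enzymes Tkt (-0.46), Pgd (-0.40) and Pgls (-0.60) fell on both scales, Pgd to 204.5 ± 0.661 CPM in the libraries labelled Git2-knockout, against 270.6 ± 1.55 CPM in wild-type. Taldo1, the most abundant, fell by 0.17 on the CPM scale and lay at -0.01 on the log2(TPM + 1) scale. After removal of length and GC trends together it was a called rise of 0.08 (edgeR adjusted p = 0.0202).

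Of 7 tested genes of quinone, carbonyl and epoxide metabolism 5 fell and 0 rose on the CPM scale, with a median of -0.66. On the log2(TPM + 1) scale 5 fell and 1 rose. The shares of all tested genes that fell and rose were 27.4% and 29.6% on the first scale, and 14.0% and 42.1% on the second. The carbonyl reductases Cbr1 (-0.66) and Cbr3 (-1.39) and the prostaglandin reductase Ptgr1 (-0.50) fell, Cbr3 to 2.32 ± 0.12 CPM in the libraries labelled Git2-knockout, against 6.08 ± 0.561 CPM in wild-type. Of 13 glutathione transferase and export genes 8 fell and 1 rose on either scale, beside the same shares of all tested genes. Gstm3 fell to 7.92 ± 0.139 CPM in the libraries labelled Git2-knockout, against 27.5 ± 0.184 CPM in wild-type (log2 fold change -1.80, edgeR adjusted p = 2.29e-11), Gstp1 fell by 0.88 and Gsta3 by 0.32 on the log2 scale, with reads that related transferases may share. The exporter Abcc4 rose by 0.42, lost with the length trend removed, and Abcc2, the most abundant in TPM, was at 0.01 (edgeR adjusted p = 0.912). Abcc2 was a called fall with the length trend removed (-0.19, edgeR adjusted p = 0.00123) and with length and GC trends removed (-0.42, edgeR adjusted p = 0.00721).

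Of 8 haem breakdown and iron storage genes 4 fell and 1 rose on the CPM scale, beside 27.4% and 29.6% of all tested genes. On the log2(TPM + 1) scale 4 fell and 3 rose, beside 14.0% and 42.1%. The ferritin chains Fth1 (-0.40) and Ftl1 (-0.39) fell, Ftl1 to 2868 ± 229 CPM in the libraries labelled Git2-knockout, against 3764 ± 161 CPM in wild-type, and both calls were lost after removal of length and GC trends together (-0.06 and -0.01). Hmox2, the constitutive haem oxygenase, fell by 0.29 on the log2 scale, a call lost with the length trend removed (-0.07) and after removal of both trends (-0.02). The iron exporter Slc40a1 rose by 0.11, a call lost under 8 of the 18 alternatives, 4 of them leaving out a library (replicate 1 or 3 labelled Git2-knockout, wild-type replicate 2 or 3). Of 6 feedback and repair targets, Osgin1, an oxidative stress-induced growth inhibitor, fell to 24.9 ± 0.885 CPM in the libraries labelled Git2-knockout, against 49.97 ± 3.11 CPM in wild-type (log2 fold change -1.01, edgeR adjusted p = 2.32e-09). The proteasome subunit Psmb5 fell by 0.23, and was a called rise of 0.18 after removal of length and GC trends together.

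**Figure D4:**
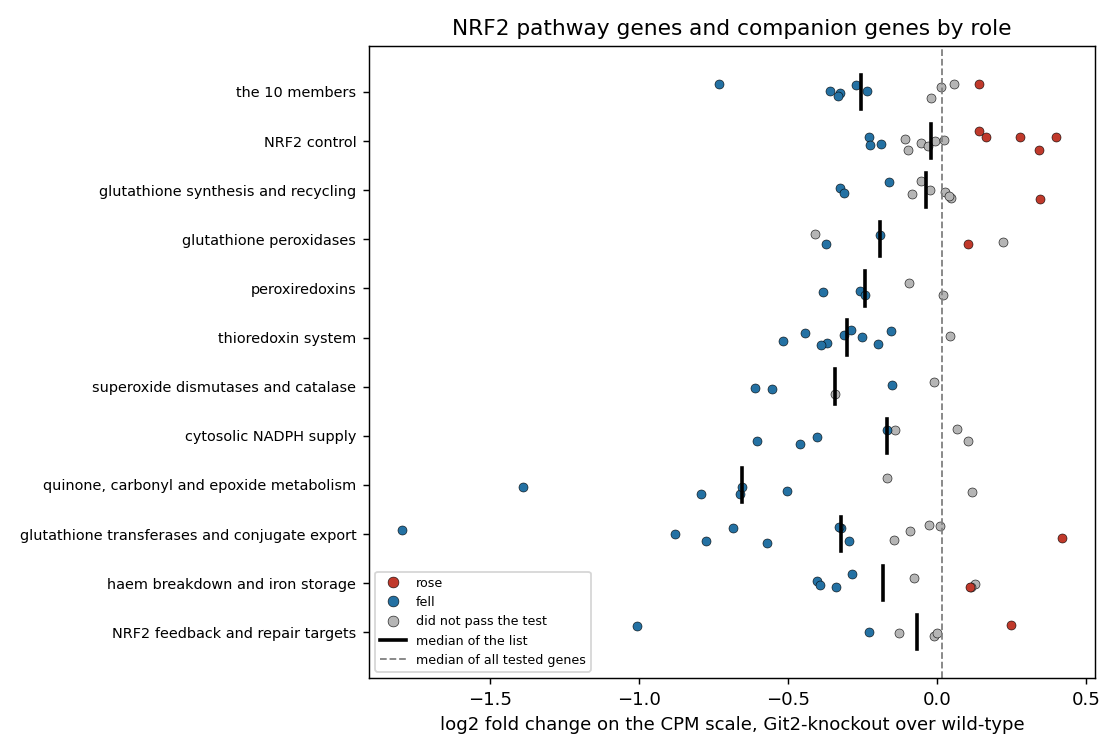
Log2 fold change on the CPM scale of the 10 members and of 90 other pathway genes by role, coloured by the edgeR call; thick strokes are list medians and the dashed line is the median of all tested genes. The list medians lie left of that line, that of quinone, carbonyl and epoxide metabolism farthest at -0.66, and 5 of the 10 rises among the 90 genes are in the list of NRF2 control.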

How the data were processed

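Poly(A) RNA of 6 libraries was measured. Per the labels' protocols, mRNA was captured with oligo(dT), cut and made into cDNA. HISAT, Bowtie2, RSEM and the build GRCm39 are named, per the submitters' processing notes, without versions. Neither strand setting nor annotation was stated. The deposited table holds estimated counts per gene per the file headers (58.9% to 69.2% of values per library are not whole), with FPKM and TPM deposited beside them. FPKM was used only for implied transcript length and as an alternative.

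Estimated counts were rounded and tested with edgeR 4.0.16 in R 4.3.3 (filterByExpr, TMM, robust glmQLFit and glmQLFTest, two-sided, no covariates), with Benjamini-Hochberg adjustment over 13558 genes and a threshold of 0.05. SE is the log2 fold change over the square root of F. Alternatives used limma 3.58.1 (voom, and limma-trend on log2(TPM + 1)), DESeq2 1.42.0, other scalings and filters (none, or 5 CPM in 3 libraries), the replicate number as a block, each library left out, and loess removal (span 0.5) of trends on length and on GC content from GENCODE M21, which covered 93.1% and 96.5% of tested genes. The edgeR fit was tested on simulated counts with known fold changes, without length or GC trends. Replicates differed by more than counting noise (chi-square per degree of freedom 1.6 to 7.16 within groups, 30.1 to 42.8 between), and each was counted. Replicate 1 labelled Git2-knockout stood apart, at 7.16 and 5.31 against replicates 2 and 3 so labelled. Replicates 2 and 3 gave 1.96 between them, and wild-type pairs 1.6 to 2.87. Without replicate 1 labelled Git2-knockout 8343 genes were called, against 7725 with all libraries. Near-identical copies were sought with 95% identity over 200 bases. Sequences are from RefSeq, assembly GRCm38.p6, with chromosome names from its gene table, while counts were made on GRCm39.

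The members, lists and tests were chosen with earlier results of these data known. Named genes are all members and, per role list, up to 3 called genes with the smallest p in each direction and the one with the highest TPM. Slc7a11, Txnrd2, Txnrd3, Txndc17, Sesn2, Msrb1, Cat, Me1, Idh1 and the marker genes named were chosen after their values were seen.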

Additional observations from a re-analysis of the deposited data

How the results depend on the processing

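Keap1, Gpx2, Srxn1 and Hmox1 kept their fall and their call under all 18 alternatives (Gpx2 from -0.80 to -0.44 on the log2 scale, Keap1 from -0.37 to -0.16, Srxn1 from -0.39 to -0.20, Hmox1 from -0.39 to -0.15). Txnrd1 kept its call in 17 and Nqo1 in 16. The count of members that rose was 1 in the reported fit, 0 by DESeq2, with upper quartile scaling and after removal of length and GC trends together, 3 with the length trend removed and 4 with limma-trend on log2(TPM + 1). It was 0 to 1 with each library left out, Nfe2l2 then lying between 0.06 and 0.17. Gclc turned to -0.10 after removal of length and GC trends together (edgeR adjusted p = 0.0182), Prdx1 to 0.16 with the length trend removed (edgeR adjusted p = 3.86e-04) and to 0.14 in TPM, and Txnrd1 to 0.0235 relative to epithelial markers. Prdx1 was also a called fall at -0.09 with both trends removed (edgeR adjusted p = 0.0135) and without replicate 1 labelled Git2-knockout (edgeR adjusted p = 0.0167). The cause of these changes was not tested, beyond the common shift of the TPM scale. Members that fell numbered 4 to 8. Companion genes that rose were 10 in the reported fit, 6 by DESeq2 and 22 on the log2(TPM + 1) scale, and those that fell 33 to 54. All called genes ran from 5886 to 8343, and 43.2% to 75.1% of calls were upward. The 4 ratios kept their sign under each of the 10 alternatives run for them, that of Gclm to Gclc between -0.09 and -0.03. Among the 10, the replicate block and the ratio of FPKM could not change the sign, since both give the same difference by construction. Removal of length or GC trends was not among those 10. In the gene fits with the length trend removed, Gclm lay at 0.10 and Gclc at -0.01. With both trends removed they lay at -0.02 and -0.10, so in both fits Gclm was above Gclc, opposite to the sign of the ratio. Same-numbered libraries did not vary together across genes (correlations of deviations -0.00113 to 0.0498). The labels do not say what the replicate numbers stand for, and these correlations cannot tell. With the replicate block 7441 genes, 1 rising and 6 falling members were called, and paired ratio differences gave an exact p of 0.25, the smallest that 3 pairs allow.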

Other observations

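Gpx3, the secreted glutathione peroxidase, had the highest TPM of all 18159 genes in each of the 3 libraries labelled Git2-knockout, and ranked 3, 3 and 2 in the wild-type libraries. It took 1.36% of all estimated reads in the libraries labelled Git2-knockout and 1.24% in wild-type. The gastrointestinal form Gpx2 ranked 1366, 1420 and 1447 in the libraries labelled Git2-knockout and 881, 893 and 839 in wild-type. These values were chosen after they were seen.

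As a description with no test, of 1814 tested genes with the antioxidant response element core in the promoter window, 30.7% rose and 26.5% fell, and of 8976 tested genes with a window and no match, 28.7% rose and 28.4% fell, with median log2 fold changes of 0.03 and 0.00. Among the members, the genes with a match included 1 that rose (Nfe2l2), 2 that fell (Srxn1 and Txnrd1) and 2 that did not pass (Gclm and Prdx1). The 3 members with a window and no match, Gpx2 (the largest fall), Nqo1 and Keap1, all fell. Gclc and Hmox1 had no window and were not searched. Distal elements were not analysed here.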
